A study of Homo sapiens with 18 samples.

Results

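The results below describe 10 genes that encode subunits of the SWI/SNF family of chromatin remodelling complexes in HCC827 and H1975, a pair of established human lung adenocarcinoma cell lines. The genes were chosen by name: SMARCA4, SMARCA2, SMARCB1, SMARCC1, SMARCC2, SMARCD3, ARID1A, ARID1B, ARID2 and PBRM1. Their Ensembl identifiers were matched without version numbers to GENCODE symbols, and all 10 were found in all 18 count files, among 60617 genes in the Illumina files and 58676 genes in the Oxford Nanopore (ONT) and PacBio files.

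The groups are HCC827 sequenced by Illumina, by ONT and by PacBio, and H1975 sequenced by Illumina, by ONT and by PacBio, with 3 libraries in each. Per the labels, the 3 RNA samples of a line came from cells grown independently, both lines were cultured in the same serum-containing medium, and no drug or genetic change is named for either. Input was 3.75 ng of mRNA with 11 PCR cycles for Illumina, 1.5 ng of mRNA with 14 PCR cycles for ONT, and total RNA with size selection and 12 PCR cycles for PacBio Iso-Seq. Each line is a single line from a cell bank, so a difference between the lines is a difference between these cultures and cannot be assigned to any one of the many ways in which they differ. In bulk RNA, fewer cells expressing a gene and less RNA per cell cannot be told apart.

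SWI/SNF complexes use the energy of ATP to slide or eject nucleosomes and so open stretches of DNA. SMARCA4 (BRG1) and SMARCA2 (BRM) are the alternative ATPases, and each complex holds one of them. SMARCB1, SMARCC1, SMARCC2 and a SMARCD protein belong to the core, ARID1A or ARID1B marks the canonical form (cBAF), and ARID2 with PBRM1 marks the polybromo form (PBAF). Genes of the family, SMARCA4 and ARID1A among them, are recurrently mutated in lung cancer.

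Gene counts totalled 10020699 in the second HCC827 Illumina library and 33362018 to 40200473 in the other Illumina libraries, 81467393 to 116497461 in ONT libraries and 37795 to 54339 in PacBio libraries. Levels are CPM, read counts relative to library sizes that were scaled by the trimmed mean of M-values (TMM). The TMM factors separated the lines, at 0.852 to 0.944 in HCC827 and 1.12 to 1.15 in H1975 Illumina libraries, and 0.776 to 0.906 in HCC827 and 1.20 to 1.22 in H1975 ONT libraries. With scaling by raw totals the folds of HCC827 over H1975 were lower: the median log2 fold of all genes was -0.04 with TMM and -0.38 with raw totals in Illumina, and -0.02 and -0.57 in ONT. Folds below are TMM-scaled, and where raw totals end the call of a named gene or turn its direction, that value is given beside it. The summed epithelial markers (6 genes) ran from 10858 to 17254 CPM in HCC827 and from 3789 to 4063 CPM in H1975 Illumina libraries, and leukocyte and endothelial marker sums stayed at or below 7.63 CPM in both lines. The summed lung adenocarcinoma markers (3 genes) ran from 218 to 287 CPM in HCC827 and from 26.1 to 30.1 CPM in H1975, with none at 0. The summed fibroblast markers (6 genes) ran from 10.6 to 16.1 CPM in HCC827 and from 348 to 390 CPM in H1975 Illumina libraries. Up to 3 of the 6 genes were at 0 in HCC827 libraries and up to 1 in H1975 libraries. Only 3 of the 6 were above 1 CPM in H1975 Illumina libraries, and DCN, LUM and THY1 did not pass the filter on low counts in Illumina or ONT. COL1A1 and COL1A2 were lower in HCC827, with log2 folds of -4.55 and -11.9 in Illumina and -4.11 and -9.33 in ONT. PDGFRB was at -5.08 in Illumina and 1.60 in ONT. The part of these markers in the results below was not tested.

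Promoter sequences are shown for 3 members, a pair that was higher in HCC827 on both deep platforms (SMARCA4 and SMARCB1) and the member that was lower on both (SMARCD3). They run from 250 bases before to 50 bases after the RefSeq transcription start nearest the GENCODE canonical one, on GRCh38.p14, and are written 5′ to 3′ on the gene's own strand. Capitals mark GC boxes (GGGCGG on either strand, overlapping matches included). The windows are chr19:10960780-10961079 on the plus strand for SMARCA4, chr22:23786716-23787015 on the plus strand for SMARCB1 and chr7:151248645-151248944 on the minus strand for SMARCD3.
SMARCA4: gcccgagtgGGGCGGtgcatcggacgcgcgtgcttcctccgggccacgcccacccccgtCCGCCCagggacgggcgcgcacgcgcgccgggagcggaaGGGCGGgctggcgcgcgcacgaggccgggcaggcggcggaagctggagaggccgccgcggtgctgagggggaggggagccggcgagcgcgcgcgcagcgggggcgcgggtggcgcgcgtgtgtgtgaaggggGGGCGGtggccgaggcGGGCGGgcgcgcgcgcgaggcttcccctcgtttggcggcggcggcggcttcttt
SMARCB1: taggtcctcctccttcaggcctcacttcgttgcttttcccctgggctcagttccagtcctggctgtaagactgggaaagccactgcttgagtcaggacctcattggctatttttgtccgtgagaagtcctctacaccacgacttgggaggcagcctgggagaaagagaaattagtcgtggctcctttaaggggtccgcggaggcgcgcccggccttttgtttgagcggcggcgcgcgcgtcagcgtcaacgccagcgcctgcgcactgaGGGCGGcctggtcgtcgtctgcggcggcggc
SMARCD3: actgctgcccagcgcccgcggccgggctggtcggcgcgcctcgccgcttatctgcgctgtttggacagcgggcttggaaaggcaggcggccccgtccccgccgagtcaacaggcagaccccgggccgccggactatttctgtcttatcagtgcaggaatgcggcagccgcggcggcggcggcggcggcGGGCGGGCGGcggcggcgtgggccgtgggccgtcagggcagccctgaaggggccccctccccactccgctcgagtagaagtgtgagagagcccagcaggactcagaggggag
The windows held 5 GC boxes for SMARCA4, 1 for SMARCB1 and 2 for SMARCD3, and 45.0% of 35116 RefSeq promoters of this length held at least one. CG dinucleotides numbered 55 in the SMARCA4 window, 25 in the SMARCB1 window and 36 in the SMARCD3 window, against a median of 14 over all promoters. An E-box (CACGTG) was in 7.26% of all promoters and, among the 7 members with a promoter entry, in that of PBRM1. The ETS core CCGGAAG was in 10.3% of all promoters and, among the same 7, in that of SMARCA2. These matches describe letters in the windows and were not tied to any measurement.

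In Illumina libraries the ATPase genes and the core genes SMARCB1 and SMARCC2 were higher in HCC827, and SMARCD3 and the PBAF genes ARID2 and PBRM1 were lower. By edgeR's quasi-likelihood test with Benjamini-Hochberg adjustment over 25711 genes, 4 of the 10 members were called higher in HCC827 (36.1% of all genes tested were), 3 were called lower (38.0% of all genes) and 3 were not called. Altogether 7 of 10 members were called, against 74.1% of all genes, so the members' share was close to the background. Their median log2 fold was 0.01, against -0.04 over all genes. In ONT libraries 4 members were called higher (31.1% of 27366 genes tested), 1 lower (31.6%) and 5 were not called; 62.7% of all genes were called in either direction. The median log2 fold of the members was 0.40 in ONT, against -0.02 over all genes. With raw totals 3 members were called higher and 5 lower in Illumina, and 0 higher and 2 lower (SMARCD3 and PBRM1) in ONT, where 23.9% of calls over all genes were higher, against 49.5% with TMM; in Illumina these shares were 33.7% and 48.8%.

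**Figure D1:**
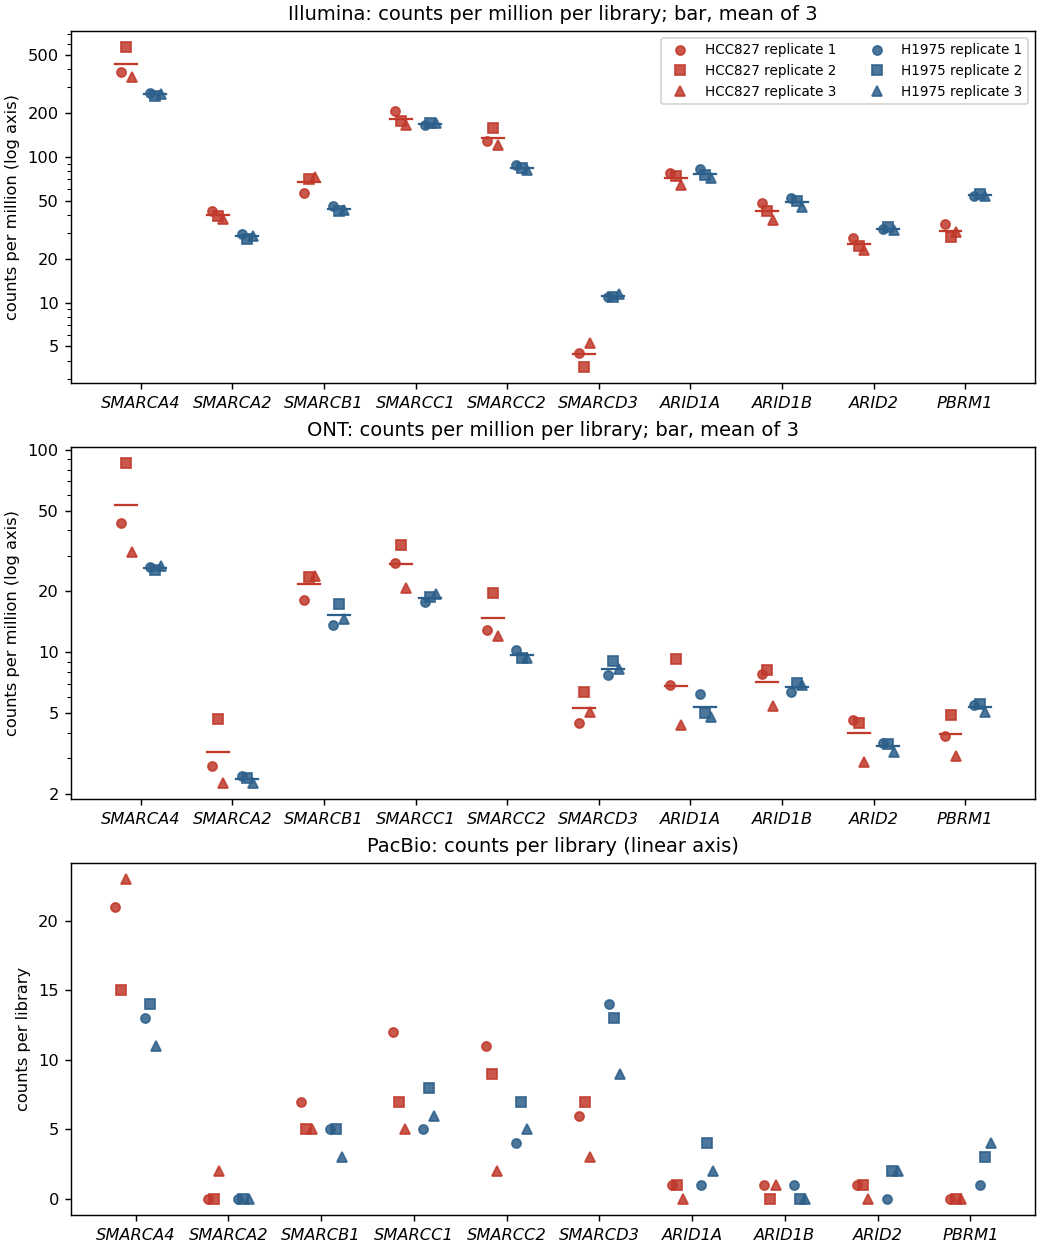
Levels of the 10 SWI/SNF subunit genes in every library, HCC827 in red and H1975 in blue, with replicates 1, 2 and 3 as circles, squares and triangles. The upper panels give TMM-scaled CPM on log axes with a bar at the mean of 3 libraries, and the lowest panel gives raw PacBio counts. SMARCD3 and PBRM1 lay lower in HCC827 in the Illumina, ONT and PacBio panels, and SMARCA4 of HCC827 replicate 2 lay above the other libraries in the Illumina and ONT panels.

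SMARCA4, the more abundant ATPase, was higher in HCC827 on both deep platforms. It stood at 384, 566 and 355 CPM in HCC827 and at 276, 261 and 270 CPM in H1975 Illumina libraries. In ONT it stood at 43.4, 86.0 and 31.2 CPM in HCC827 and at 26.5, 25.4 and 26.7 CPM in H1975. The groups did not overlap on either platform, and HCC827 replicate 2 was the highest library on both. The log2 fold was 0.69 ± 0.15 (SE) in Illumina (edgeR adjusted p = 0.000685) and 1.03 ± 0.30 in ONT (edgeR adjusted p = 0.0108). Without HCC827 replicate 2 it was 0.47 in Illumina (edgeR adjusted p = 0.000551) and 0.53 in ONT (edgeR adjusted p = 0.00317). The ONT call was lost with raw totals (0.52, edgeR adjusted p = 0.227) and with no filter on low counts (1.00, edgeR adjusted p = 0.0687), while the Illumina call held with raw totals (0.33, edgeR adjusted p = 0.0422).

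SMARCA2, the alternative ATPase, had fewer counts than SMARCA4 in all 12 Illumina and ONT libraries. It stood at 42.6, 39.1 and 37.3 CPM in HCC827 and at 29.8, 27.1 and 28.7 CPM in H1975 Illumina libraries, without overlap. By ONT the levels were 2.73, 4.69 and 2.26 CPM in HCC827 and 2.45, 2.39 and 2.26 CPM in H1975, and the groups overlapped. SMARCA2 rose in HCC827 in Illumina, by 0.48 ± 0.09 (edgeR adjusted p = 0.000377), a call lost with raw totals (0.13, edgeR adjusted p = 0.305). The ONT value of 0.45 ± 0.25 did not pass (edgeR adjusted p = 0.137), was 0.10 without HCC827 replicate 2 (edgeR adjusted p = 0.550) and turned to -0.078 with raw totals. The count of SMARCA4 over that of SMARCA2 within a library does not depend on library scaling. On the log2 scale this ratio was 3.17, 3.86 and 3.25 in HCC827 and 3.21, 3.27 and 3.23 in H1975 Illumina libraries, a mean difference of 0.19 (exact two-sided permutation p = 0.8), which was -0.027 without HCC827 replicate 2. In ONT it was 3.99, 4.20 and 3.79 in HCC827 and 3.43, 3.41 and 3.56 in H1975, a difference of 0.52 (exact permutation p = 0.1, the smallest that 3 against 3 allows). Over the 6 ratio comparisons made, the smallest Benjamini-Hochberg adjusted permutation p was 0.2.

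SMARCB1 (INI1, the subunit lost in rhabdoid tumours) was higher in HCC827 in both deep data sets. It stood at 56.8, 70.5 and 72.9 CPM in HCC827 and at 45.8, 42.8 and 42.9 CPM in H1975 Illumina libraries. ONT levels were 18.1, 23.4 and 23.8 CPM in HCC827 and 13.7, 17.4 and 14.6 CPM in H1975. All HCC827 libraries were above all H1975 libraries on both platforms, by the narrowest margin between HCC827 replicate 1 and H1975 replicate 2 in ONT. Its log2 fold was 0.60 ± 0.11 in Illumina (edgeR adjusted p = 0.000141) and 0.52 ± 0.16 in ONT (edgeR adjusted p = 0.0158). The ONT call was lost without H1975 replicate 1 (0.44, edgeR adjusted p = 0.0858) or replicate 3 (0.48, edgeR adjusted p = 0.0749), and its direction turned with raw totals (-0.034). SMARCB1 shares 2923 exonic bases with DERL3 on the opposite strand, whose log2 fold was 0.02 ± 0.23 in Illumina and 0.72 ± 0.17 in ONT. DERL3 had 70 counts in HCC827 and 119 in H1975 over the Illumina libraries. Over the ONT libraries it had 4315 in HCC827 and 3314 in H1975, and its part in the SMARCB1 counts was not tested. No source used here gives the strand setting of the counting, so reads of such pairs cannot be told apart.

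SMARCC1 and SMARCC2 (BAF155 and BAF170) are paralogous scaffold subunits that pair up as the base of the complex. SMARCC1 stood at 206, 176 and 166 CPM in HCC827 and at 165, 171 and 171 CPM in H1975 Illumina libraries, and the groups overlapped. In the ONT libraries it stood at 27.5, 34.0 and 20.8 CPM in HCC827 and at 17.7, 18.7 and 19.3 CPM in H1975, without overlap. SMARCC1 did not pass in Illumina (log2 fold 0.11 ± 0.10, edgeR adjusted p = 0.336, and -0.24 with raw totals). It was called higher in ONT at 0.56 ± 0.18 (edgeR adjusted p = 0.0174). That call was lost without H1975 replicate 1 (0.52, edgeR adjusted p = 0.0704) or replicate 2 (0.56, edgeR adjusted p = 0.0556) and with raw totals (0.03, edgeR adjusted p = 0.922).

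SMARCC2 was higher in HCC827 on both deep platforms. It stood at 129, 158 and 120.0 CPM in HCC827 and at 87.4, 84.2 and 81.3 CPM in H1975 Illumina libraries. ONT gave 12.9, 19.7 and 12.0 CPM in HCC827 and 10.2, 9.37 and 9.37 CPM in H1975. The groups did not overlap on either platform. On the log2 scale the fold was 0.68 ± 0.11 in Illumina (edgeR adjusted p = 5.47e-05) and 0.62 ± 0.19 in ONT (edgeR adjusted p = 0.0156). The ONT call was lost without H1975 replicate 2 (0.60, edgeR adjusted p = 0.0587) or replicate 3 (0.59, edgeR adjusted p = 0.0608), and with raw totals (0.09, edgeR adjusted p = 0.755). Without HCC827 replicate 2 the ONT fold was 0.39 (edgeR adjusted p = 0.00845). The Illumina counts of SMARCC2 and of ENSG00000258199, a lncRNA on the same strand that shares 191 exonic bases with it, differed by 0 to 2 in every library, so the Illumina value cannot be assigned to one of the pair. Over the ONT libraries ENSG00000258199 had 17119 counts in HCC827 and 14392 in H1975, more than SMARCC2 in both lines. Its ONT log2 fold was 0.57 ± 0.12, and its part in the ONT counts of SMARCC2 was not tested. MYL6, a myosin light chain gene on the opposite strand, shares 719 exonic bases with SMARCC2 and had 216417 counts in HCC827 and 338485 in H1975 over the ONT libraries. SMARCC2 had 3708 counts in HCC827 and 3006 in H1975 there. The log2 fold of MYL6 was 0.03 ± 0.11 in Illumina and -0.31 ± 0.12 in ONT, and its part in the SMARCC2 counts was not tested. The log2 ratio of SMARCC1 over SMARCC2 counts was 0.68, 0.15 and 0.47 in HCC827 and 0.92, 1.02 and 1.08 in H1975 Illumina libraries, a difference of -0.57 (exact permutation p = 0.1, adjusted p = 0.2). In ONT this ratio was 1.10, 0.79 and 0.79 in HCC827 and 0.79, 1.00 and 1.04 in H1975, a difference of -0.05 (exact permutation p = 0.9).

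SMARCD3 (BAF60C, a core subunit known for its part in heart and skeletal muscle development in mouse) was the least abundant member by Illumina CPM in both lines and was lower in HCC827. It stood at 4.49, 3.61 and 5.28 CPM in HCC827 and at 10.9, 10.9 and 11.5 CPM in H1975 Illumina libraries. Its ONT levels were 4.48, 6.37 and 5.05 CPM in HCC827 and 7.68, 9.01 and 8.24 CPM in H1975. Every HCC827 library was below every H1975 library on both platforms. The log2 fold was -1.26 ± 0.13 in Illumina (edgeR adjusted p = 7.44e-07) and -0.65 ± 0.17 in ONT (edgeR adjusted p = 0.00609). Both calls held with raw totals, at -1.61 in Illumina and -1.19 in ONT, and under the other 10 alternatives run on each platform. CHPF2, a chondroitin polymerising factor gene on the opposite strand, shares 1321 exonic bases with SMARCD3 and was also lower in HCC827, at -0.52 ± 0.10 in Illumina and -0.60 ± 0.16 in ONT; its part in the SMARCD3 counts was not tested. The same holds for ENSG00000272661, an antisense lncRNA over 574 of its exonic bases, at -0.96 ± 0.27 in Illumina and -1.02 ± 0.23 in ONT.

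ARID1A and ARID1B, the alternative ARID subunits of cBAF, did not pass the test between the lines. ARID1A stood at 78.0, 73.8 and 64.3 CPM in HCC827 and at 82.1, 75.6 and 71.8 CPM in H1975 Illumina libraries. The ONT values were 6.85, 9.21 and 4.35 CPM in HCC827 and 6.21, 5.03 and 4.79 CPM in H1975. The groups overlapped on both platforms. The ARID1A log2 fold was -0.09 ± 0.10 in Illumina (edgeR adjusted p = 0.446) and 0.35 ± 0.24 in ONT (edgeR adjusted p = 0.228), where it was 0.099 without HCC827 replicate 2 (edgeR adjusted p = 0.646).

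ARID1B stood at 48.3, 42.8 and 37.0 CPM in HCC827 and at 51.9, 49.9 and 45.2 CPM in H1975 Illumina libraries. By ONT it stood at 7.81, 8.18 and 5.41 CPM in HCC827 and at 6.34, 7.09 and 6.89 CPM in H1975. The groups overlapped on both platforms here too. Its log2 fold was -0.20 ± 0.11 in Illumina (edgeR adjusted p = 0.116) and 0.08 ± 0.18 in ONT (edgeR adjusted p = 0.723). With raw totals both genes were called lower in Illumina, ARID1A at -0.44 (edgeR adjusted p = 0.00301) and ARID1B at -0.55 (edgeR adjusted p = 0.00132), and ARID1B also without HCC827 replicate 1 (-0.31, edgeR adjusted p = 0.00506). In ONT the direction of both turned with raw totals, to -0.18 and -0.47. The log2 ratio of ARID1A over ARID1B counts was 0.69, 0.79 and 0.80 in HCC827 and 0.66, 0.60 and 0.67 in H1975 Illumina libraries, a difference of 0.12 (exact permutation p = 0.1). In ONT the difference was 0.24 (exact permutation p = 0.3).

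PBRM1 (BAF180, which carries the bromodomains that bind acetylated histones) was lower in HCC827 in Illumina libraries. It stood at 34.7, 28.1 and 30.7 CPM in HCC827 and at 53.7, 55.5 and 54.1 CPM in H1975. Its ONT values were 3.85, 4.87 and 3.06 CPM in HCC827 and 5.46, 5.53 and 5.08 CPM in H1975. All HCC827 libraries were below all H1975 libraries on both platforms. Its log2 fold was -0.79 ± 0.10 in Illumina (edgeR adjusted p = 4.75e-06), and all 11 alternatives run kept that call. UQCC5, which shares 146 exonic bases with PBRM1 on the opposite strand, was at -0.58 ± 0.10 in Illumina and 0.02 ± 0.15 in ONT. The ONT value of -0.45 ± 0.18 did not pass (edgeR adjusted p = 0.0529). It passed without HCC827 replicate 2 (-0.60, edgeR adjusted p = 0.00188), with no filter on low counts (-0.47, edgeR adjusted p = 0.0372) and with raw totals (-0.98, edgeR adjusted p = 0.00404).

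ARID2 (BAF200, the ARID subunit of PBAF) was lower in HCC827 in Illumina libraries. It stood at 27.8, 24.5 and 23.0 CPM in HCC827 and at 32.1, 33.0 and 31.3 CPM in H1975, without overlap. In ONT libraries its levels were 4.60, 4.49 and 2.85 CPM in HCC827 and 3.56, 3.53 and 3.23 CPM in H1975, and the groups overlapped. On the log2 scale the fold was -0.35 ± 0.10 in Illumina (edgeR adjusted p = 0.00511). In ONT it was 0.21 ± 0.20 (edgeR adjusted p = 0.359), and -0.33 with raw totals. Of the other subunits particular to PBAF, PHF10 was called lower in HCC827 in Illumina (-0.37 ± 0.10, edgeR adjusted p = 0.00582) and BRD7 was not (-0.19 ± 0.10, edgeR adjusted p = 0.0867). In ONT neither passed, PHF10 at -0.13 ± 0.21 (edgeR adjusted p = 0.600) and BRD7 at 0.22 ± 0.16 (edgeR adjusted p = 0.233). PHF10 and BRD7 were picked from the list of other subunits after their values were seen. BRD7 shares 3593 exonic bases with ADCY7 on the opposite strand, which was at -0.46 ± 0.10 in Illumina and 0.01 ± 0.20 in ONT. PHF10 shares 485 with C6orf120 on the opposite strand, which was at -0.33 ± 0.12 in Illumina and -0.03 ± 0.20 in ONT. The part of ADCY7 and C6orf120 in these counts was not tested.

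**Figure D2:**
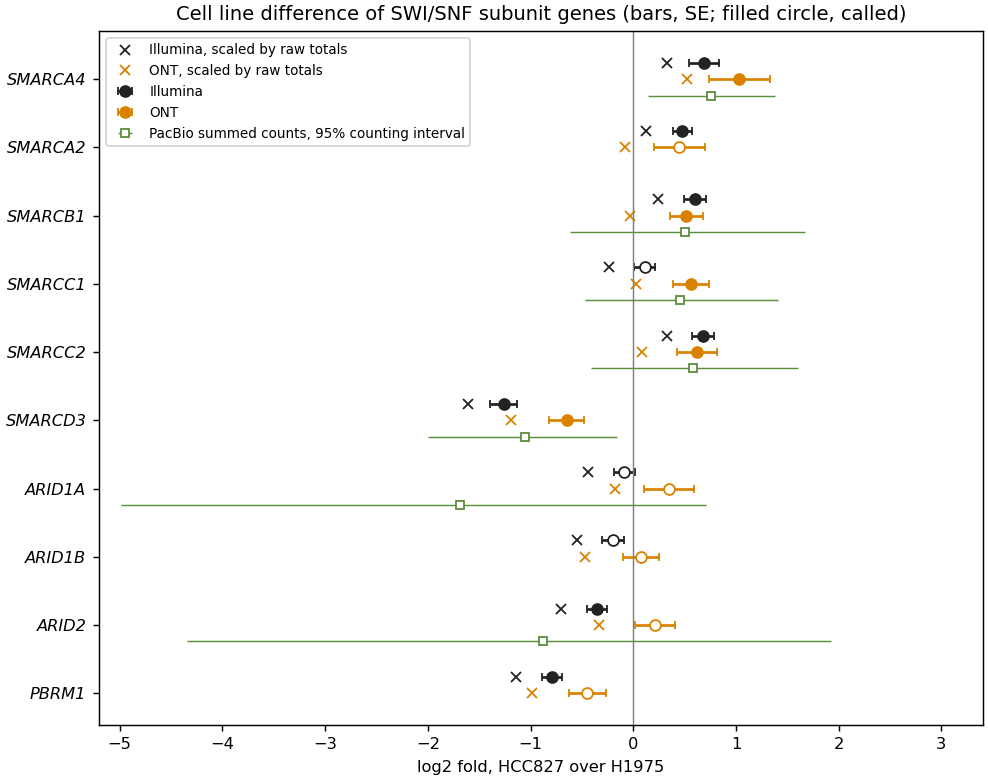
Log2 fold of HCC827 over H1975 for each member, with TMM-scaled edgeR values and their SE as circles (filled where called), raw-total scaled values as crosses, and PacBio ratios of summed counts with 95% counting intervals as squares. SMARCD3 lay below 0 on all 3 platforms and under both scalings, whereas most ONT values of the other members crossed or approached 0 under raw totals.

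PacBio depth allowed counts only for most members. SMARCA4 alone passed the filter on low counts, and 22.9% of the 901 genes tested were called. SMARCA4 had 21, 15 and 23 counts in HCC827 libraries and 13, 14 and 11 counts in H1975 libraries, a log2 fold of 0.77 ± 0.29 that did not pass (edgeR adjusted p = 0.0863). A pair of HCC827 libraries (replicates 1 and 2) and a pair of H1975 libraries (replicates 2 and 3) differed by less than the sampling noise, while the other pairs of these groups did not; with each such pair counted as 1 sample the value was 0.71 (edgeR adjusted p = 0.361). HCC827 replicate 2, the highest SMARCA4 library on the other platforms, had the fewest SMARCA4 counts of the 3 HCC827 libraries here, at a total of 40910 counts against 54339 and 37795 in replicates 1 and 3.

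The remaining PacBio members are given as counts summed over 3 libraries, with ratios of summed counts per total and exact 95% Clopper-Pearson intervals that cover counting error only. These sums take the close pairs of libraries described above as separate. If the libraries of a pair share reads, the intervals below are too narrow, and ratios with the pairs merged were not computed. SMARCD3 had 6, 7 and 3 counts in HCC827 and 14, 13 and 9 counts in H1975, a ratio of 0.483 (interval 0.250 to 0.893). SMARCB1, SMARCC1 and SMARCC2 had 17, 24 and 22 counts in HCC827 and 13, 19 and 16 counts in H1975, and the intervals of all 3 ratios included 1. PBRM1 had 0 counts in HCC827 and 8 in H1975. With the floor of 3 counts put in place of the 0, its level was 2.45-fold lower in HCC827. That value takes no account of the counting error of the 8 counts and has no interval. ARID1A had 2 counts in HCC827 and 7 in H1975 (ratio 0.311, interval 0.0315 to 1.63), and ARID2 had 2 in HCC827 and 4 in H1975 (ratio 0.544, interval 0.0492 to 3.79). SMARCA2 with 2 counts in HCC827 and 0 in H1975, and ARID1B with 2 in HCC827 and 1 in H1975, were at or under the floor in both lines and have no ratio.

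The order of the members was read from Illumina CPM per kb of GENCODE exon length, a level that can be set between genes. In HCC827 SMARCA4 (27.9 ± 7.35, SD, n = 3), SMARCC1 (23.96 ± 2.73) and SMARCC2 (14.8 ± 2.19) came first, and the libraries of SMARCA4 and SMARCC1 overlapped. ARID1A (4.52), SMARCB1 (4.04), PBRM1 (3.23), SMARCA2 (2.08), ARID2 (2.02), ARID1B (0.929) and SMARCD3 (0.907) followed in mean CPM per kb; the neighbours ARID1A and SMARCB1, SMARCB1 and PBRM1, SMARCA2 and ARID2, and ARID1B and SMARCD3 overlapped. In H1975 SMARCC1 (22.2 ± 0.471) came before SMARCA4 (17.3 ± 0.478) and SMARCC2 (9.18 ± 0.333). PBRM1 (5.64), ARID1A (4.80), SMARCB1 (2.65), ARID2 (2.59), SMARCD3 (2.26), SMARCA2 (1.50) and ARID1B (1.07) followed in mean CPM per kb, and among these only SMARCB1 and ARID2 overlapped as neighbours. Per kb of the canonical transcript SMARCA4 came first in both lines, at 78.0 in HCC827 and 48.3 in H1975, so the order depends on the length used. The place of SMARCC2 rests on Illumina counts that cannot be told apart from those of ENSG00000258199.

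**Figure D3:**
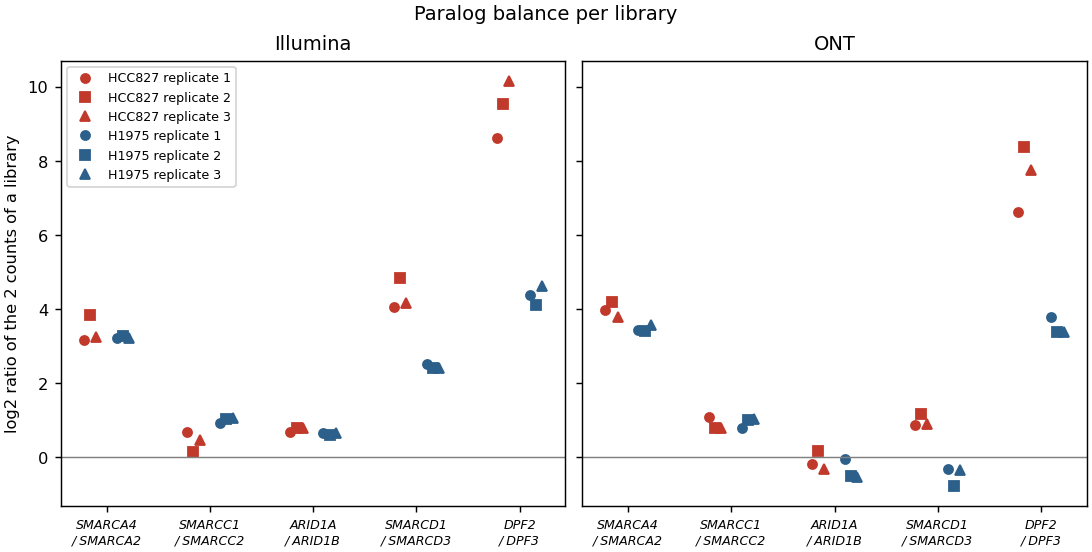
Log2 ratio of the counts of 2 paralogs within each library, Illumina on the left and ONT on the right, HCC827 in red and H1975 in blue, with 1 point per library. The SMARCD1 over SMARCD3 and DPF2 over DPF3 ratios lay higher in HCC827 in all libraries, whereas the ARID1A over ARID1B ratios of the lines lay close together.

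Among the other subunits named, DPF3 was far lower and SS18 was lower in HCC827 on both deep platforms with TMM. DPF2, BCL7A, SMARCD1, SMARCD2 and BICRA were higher in HCC827 on both. With raw totals DPF3, SS18 and DPF2 kept their calls on both platforms and BCL7A in Illumina, and the other calls of these genes were lost. Of 19 further SWI/SNF subunit genes 18 were tested, and ACTL6B, the neuronal actin-like subunit, was not tested, with 0 counts in HCC827 and 2 in H1975 over the Illumina libraries and 9 in HCC827 and 21 in H1975 over the ONT libraries. In Illumina 10 of the 18 were called higher, 5 lower and 3 not, against 36.1% of all genes higher and 38.0% lower, with a median log2 fold of 0.26 (-0.04 over all genes). In ONT 7 were called higher, 4 lower and 7 not, against 31.1% of all genes higher and 31.6% lower, with a median of 0.09 (-0.02 over all genes). With raw totals 3 were called higher and 8 lower in Illumina, and 1 higher and 9 lower in ONT. None of the 18 was called in opposite directions on Illumina and ONT.

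DPF3 (BAF45C, a histone-reading subunit) was the most lowered of these genes. It had 6, 1 and 2 counts in HCC827 and 71, 93 and 49 counts in H1975 Illumina libraries, which is 0.119 ± 0.0526 CPM in HCC827 and 1.68 ± 0.362 CPM in H1975 (SD, n = 3 each). The log2 fold was -3.74 ± 0.37 in Illumina (edgeR adjusted p = 5.3e-07) and -2.91 ± 0.38 in ONT (edgeR adjusted p = 6.41e-05). Its paralog DPF2 (BAF45D) was higher, at 77.6 ± 9.77 CPM in HCC827 and 34.4 ± 1.83 CPM in H1975 Illumina libraries, with log2 folds of 1.17 ± 0.11 in Illumina and 1.02 ± 0.15 in ONT. The log2 ratio of DPF2 over DPF3 counts was higher in HCC827, by 5.07 in Illumina and 4.07 in ONT, a pair chosen after its values were seen and not tested.

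SMARCD1 and SMARCD2, the paralogs of SMARCD3, were called in the opposite direction to it. SMARCD1 (BAF60A) stood at 91.3 ± 15.0 CPM in HCC827 and 60.7 ± 2.23 CPM in H1975 Illumina libraries, with log2 folds of 0.58 ± 0.12 in Illumina and 0.84 ± 0.21 in ONT. SMARCD2 (BAF60B) had log2 folds of 0.48 ± 0.11 in Illumina and 0.80 ± 0.25 in ONT. Raw totals ended these calls, with SMARCD1 at 0.22 in Illumina and 0.31 in ONT (edgeR adjusted p = 0.0689 and 0.312) and SMARCD2 at 0.12 in Illumina and 0.28 in ONT (edgeR adjusted p = 0.292 and 0.436). The SMARCD2 call in ONT was also lost without H1975 replicate 1 or 2 (edgeR adjusted p = 0.0568 and 0.0543), and without HCC827 replicate 2 its fold was 0.42 (edgeR adjusted p = 0.00705). The log2 ratio of SMARCD1 over SMARCD3 counts, which needs no scaling, was 4.06, 4.85 and 4.17 in HCC827 and 2.53, 2.42 and 2.41 in H1975 Illumina libraries. In ONT it was 0.87, 1.18 and 0.91 in HCC827 and -0.32, -0.76 and -0.34 in H1975. The lines did not overlap on either platform for this pair, which was also chosen after its values were seen and has no test.

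Among the other named subunits, BCL7A (a small cBAF-associated subunit) was higher in HCC827 at 0.92 ± 0.15 in Illumina and 1.22 ± 0.25 in ONT, and its ONT call was lost with raw totals (0.70, edgeR adjusted p = 0.0729). BICRA (GLTSCR1, which marks the non-canonical complex) was higher at 0.47 ± 0.10 in Illumina and 0.60 ± 0.18 in ONT. Both BICRA calls were lost with raw totals (0.12 in Illumina and 0.049 in ONT, edgeR adjusted p = 0.341 and 0.838), and the ONT call also without H1975 replicate 1 or 3 (0.58 each, edgeR adjusted p = 0.0549 and 0.0630). SS18, the partner of the fusion gene of synovial sarcoma, was lower at -0.57 ± 0.11 in Illumina and -0.82 ± 0.14 in ONT. SMARCE1 (BAF57) was higher in Illumina at 0.65 ± 0.10 and did not pass in ONT at 0.21 ± 0.14 (edgeR adjusted p = 0.195), where it was called higher without HCC827 replicate 2 (0.33, edgeR adjusted p = 0.0146) and lower with raw totals (-0.35, edgeR adjusted p = 0.0187). SMARCE1 shares exons with ENSG00000264058 on the same strand, whose Illumina counts were 1.15 to 2.23% above its own, and the pair cannot be told apart.

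**Figure D4:**
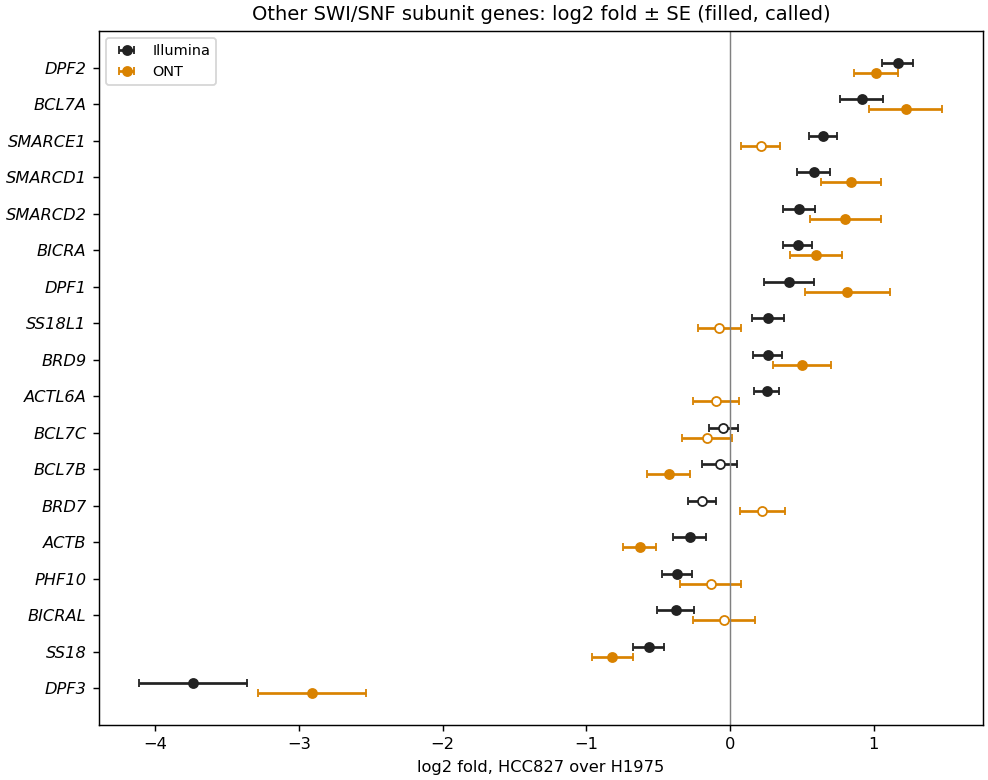
Log2 fold of HCC827 over H1975 with SE for the 18 further SWI/SNF subunit genes tested, Illumina in black and ONT in orange, filled where called. DPF3 lay far below the others on both platforms, and DPF2 and BCL7A lay highest.

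The difference of the line folds between platforms, ONT minus Illumina, was fitted as an interaction on the 12 Illumina and ONT libraries, with TMM factors computed across both platforms. That joint scaling sets the differences higher than TMM factors computed within each platform, by 0.16 for SMARCD3, and the median of all genes was 0.11 against -0.05. The difference was above 0 for all 10 members with joint TMM, and SMARCA2 (-0.027), SMARCB1 (-0.084) and SMARCC2 (-0.062) were below 0 with TMM within each platform. With relative log expression size factors it was above 0 for 8, and SMARCB1 (-0.035) and SMARCC2 (-0.017) turned. The joint TMM median was 0.51 on the log2 scale over the members, against 0.11 over all genes. It was 0.48 over 15 ATPases of other chromatin remodelling families, and the difference was above 0 for all 15. Over the 18 other SWI/SNF subunits tested it was 0.34, and over 11 genes of Polycomb repressive complex 2 it was 0.10. SMARCD3 alone was called, at 0.78 ± 0.22 (edgeR adjusted p = 0.0347), while its separate line folds of -0.65 in ONT and -1.26 in Illumina differ by 0.61; 5.03% of 29395 genes were called higher and 7.16% in either direction. ARID2 followed at 0.73 ± 0.22 (edgeR adjusted p = 0.0548) and SMARCC1 at 0.61 ± 0.21 (edgeR adjusted p = 0.0880). The labels give both platforms the same RNA samples, and with a block for RNA sample 3 members were called, SMARCD3 at 0.74 (edgeR adjusted p = 0.0259), SMARCC1 at 0.59 (edgeR adjusted p = 0.0238) and ARID2 at 0.70 (edgeR adjusted p = 0.0124). With TMM factors within each platform the SMARCD3 call was lost (0.63 ± 0.22, edgeR adjusted p = 0.116, and 0.58 with the block, edgeR adjusted p = 0.0884). No member was called under that scaling without the block, ARID2 alone was called with it (0.54, edgeR adjusted p = 0.0494), and 52.6% of calls over all genes were higher, against 70.2% with joint TMM. The SMARCD3 call was also lost with raw totals (0.44, edgeR adjusted p = 0.280), with relative log expression size factors (0.67, edgeR adjusted p = 0.0766) and without any 1 of 8 single libraries, the 3 H1975 Illumina, the 3 H1975 ONT and HCC827 Illumina replicates 1 and 2 (0.60 to 0.80, edgeR adjusted p = 0.0726 to 0.311). Without HCC827 ONT replicate 3, 6 members were called. With raw totals 0 members were called, the median over all genes was -0.25, and SMARCA2 (-0.20), SMARCB1 (-0.27) and SMARCC2 (-0.24) turned below 0. The ONT level of all 10 members was higher in HCC827 replicate 2 than the mean of replicates 1 and 3, by 1.12 times for SMARCB1 up to 2.31 times for SMARCA4, and in Illumina the same ratio ran from 0.740 for SMARCD3 to 1.53 for SMARCA4.

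The platform ratio asks how the same RNA was read by ONT relative to Illumina, as CPM and with equal weight for both lines. SMARCD3 was higher in ONT, by 1.38 ± 0.11 on the log2 scale, and 8 members were lower, by 1.23 ± 0.11 for ARID1B up to 2.13 ± 0.14 for ARID1A. Over all genes 83.4% were called in either direction, 44.2% higher in ONT and 39.1% lower, and the median log2 ratio was 0.12 over all genes and -1.57 over the members. All 15 ATPases of other remodelling families were called lower in ONT, with a median of -1.84. The median was -0.51 over the 18 other subunits tested and -0.78 over the 11 Polycomb genes. SMARCB1 did not pass, at -0.08 ± 0.10 (edgeR adjusted p = 0.444), and was called lower in ONT without H1975 ONT replicate 2 (-0.25, edgeR adjusted p = 0.0337) or HCC827 ONT replicate 3 (-0.23, edgeR adjusted p = 0.0342). The part of DERL3 counts in this ratio, and of ENSG00000258199 and MYL6 counts in that of SMARCC2, was not tested. The canonical transcript is 1907 bases long for SMARCD3 and 5090 to 10310 bases long for the other 9. Within those 9, ARID1B had the longest transcript and a ratio of -1.23 ± 0.11, and SMARCA2 (5748 bases) and ARID1A (8595 bases) had the lowest ratios. These are annotated lengths, and a link of the ratio to transcript length was not tested. CPM is not corrected for length on either platform, so these ratios compare counts and not molecules.

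**Figure D5:**
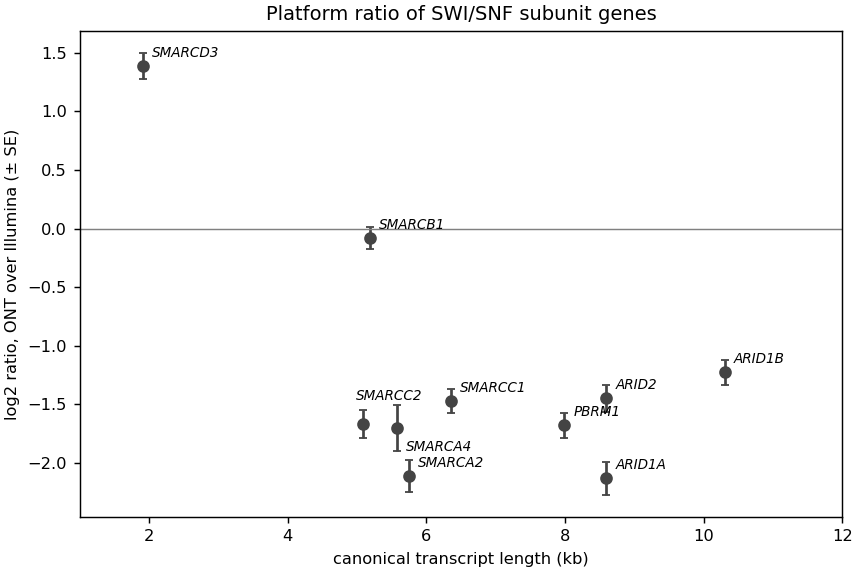
Log2 ratio of ONT over Illumina CPM (mean of both lines, bars SE) of each member against the length of its canonical transcript in kb. SMARCD3, the shortest, lay at 1.38, SMARCB1 at -0.08 and the other 8 between -1.23 and -2.13.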

How the data were processed

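The deposited files hold raw counts per gene from Illumina, ONT and PacBio libraries of HCC827 and H1975. Per the submitters' processing notes, the authors used minimap2 2.17, featureCounts and GRCh38; the strand setting and the annotation are not stated there. The annotated features include 76 spiked-in sequins, which were left out here. They also include 45 copies on the Y pseudoautosomal region, whose counts were added to the gene of the same identifier. Symbols came from GENCODE release 44.

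Each platform was fitted with edgeR 4.0.16 in R 4.3.3 (quasi-likelihood test, TMM factors, filterByExpr by group with a minimum count of 10, robust fit, two-sided, Benjamini-Hochberg over all genes tested). A gene was called at an adjusted p below 0.05, and SE is the log2 fold divided by the root of F. The difference of line folds and the platform ratio were fitted on 12 Illumina and ONT libraries with TMM factors across both. Paralog ratios were compared by exact two-sided permutation tests (scipy 1.17.1). PacBio ratios of summed counts have 95% Clopper-Pearson intervals and a floor of 3 counts. Scripts were tested on simulated data.

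The members and gene lists were chosen with earlier results of these data known. All members were named. Of the other subunits the 8 with the largest Illumina fold among those called were named, and 4 each of the other ATPases and of Polycomb repressive complex 2; genes outside this rule are marked as such. DESeq2 1.42.0, other size factors, no filter, a replicate block and leaving out each library were alternatives fixed at the start; raw-total scaling and, for the difference of folds, TMM factors within each platform were added after seeing the data.

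Replicate numbers did not pair the lines in Illumina or ONT. For libraries of the same number the correlation of deviations ran from -0.0750 to 0.110 in Illumina and from -0.139 to 0.0185 in ONT. For libraries of unlike number it ran from -0.145 to 0.154 in Illumina and from -0.0870 to 0.157 in ONT. In PacBio it was -0.54, 0.24 and -0.53 for the same numbers. The design gives ONT and Illumina libraries of one number the same RNA sample. The correlation of deviations between such libraries was 0.32, 0.15 and 0.27 in HCC827 and 0.09, -0.02 and 0.06 in H1975, so this pairing was hardly visible in H1975. P-values of the Illumina and ONT line folds measure the spread between the 3 RNA samples of each line. Each gene had a single fitted spread for both lines. In Illumina the mean chi-square between libraries of a line was 15.6 to 69.6 in HCC827 and 3.30 to 3.81 in H1975. The difference of folds and the platform ratio, fitted without the block, took ONT and Illumina libraries of the same RNA sample as separate. Their p-values do not measure that spread alone. Whether the close PacBio pairs are separate samples was not tested.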

Additional observations from a re-analysis of the deposited data

Results flagged for a closer look

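For 4 named genes the fold of HCC827 over H1975 differed between ONT and Illumina by the interaction test of edgeR with TMM factors computed across both platforms, and each difference was positive. Of 29395 genes tested, 7.16% were called in either direction and 5.03% higher. Line folds fitted within each platform differ by less, since the joint scaling raised each difference by 0.16 over TMM within each platform. SMARCD3 differed by 0.78 on the log2 scale (edgeR adjusted p = 0.0347), and its separate line folds were -0.65 in ONT and -1.26 in Illumina. CHD9, a chromodomain ATPase, differed by 0.88 (edgeR adjusted p = 0.00535), beside separate folds of -0.31 in ONT and -1.02 in Illumina. SUZ12, a core subunit of Polycomb repressive complex 2, differed by 0.85 (edgeR adjusted p = 0.00555), beside separate folds of -0.38 in ONT and -1.07 in Illumina. SRCAP, the ATPase that exchanges histone H2A.Z, differed by 0.74 (edgeR adjusted p = 0.0314), beside separate folds of -0.17 in ONT and -0.75 in Illumina. SRCAP shares 10136 exonic bases with ENSG00000282034, a protein-coding gene on the same strand with log2 folds of -0.06 ± 0.15 in ONT and -0.65 ± 0.11 in Illumina, and reads of the pair cannot be told apart. With TMM within each platform CHD9 (0.72, edgeR adjusted p = 0.0210) and SUZ12 (0.69, edgeR adjusted p = 0.0242) were still called, and SMARCD3 (0.63, edgeR adjusted p = 0.116) and SRCAP (0.58, edgeR adjusted p = 0.113) were not. The calls of CHD9 and SUZ12 were lost without any 1 of the 3 H1975 Illumina libraries (0.70 to 0.75 for CHD9 and 0.67 to 0.75 for SUZ12) and with raw totals (0.51 for CHD9 and 0.50 for SUZ12). That of SRCAP was also lost with DESeq2 (0.63, DESeq2 adjusted p = 0.0565), with relative log expression size factors (0.63), and without any 1 of 8 libraries, the 3 H1975 Illumina, the 3 H1975 ONT and replicate 3 of HCC827 on either platform (0.55 to 0.76). CHD8, outside the naming rule and picked after its values were seen, was also called, at 0.91 ± 0.26 (edgeR adjusted p = 0.0417). Its separate folds were positive, at 1.06 in ONT and 0.31 in Illumina. Values under the alternatives are not given for CHD8.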

How the results depend on the processing

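Raw-total scaling moved most counts of calls. In Illumina it gave 5 members called lower (3 with TMM), 3 other subunits higher (10) and 8 lower (5), 2 ATPases higher (4), 5 Polycomb genes lower (2), and -0.24 for SMARCC1. In ONT it gave 0 members higher (4) and 2 lower (1), 1 other subunit higher (7) and 9 lower (4), 1 ATPase higher (4) and 7 lower (1), 6 Polycomb genes lower (0), and turned SMARCA2 to -0.078, SMARCB1 to -0.034, ARID1A to -0.18, ARID1B to -0.47, ARID2 to -0.33 and SMARCE1 to -0.35. For the difference of folds it gave 3358 genes called (2105) and 0 members (1), with SMARCA2 at -0.20, SMARCB1 at -0.27 and SMARCC2 at -0.24, and 20.8% of calls higher against 70.2% with TMM, 59.5% with relative log expression size factors and 60.0% with DESeq2. Relative log expression size factors gave 0 members called for that difference, with SMARCB1 at -0.035 and SMARCC2 at -0.017, against -0.035 and -0.018 with DESeq2. With no filter, 6 other subunits were higher in Illumina, 2 members and 3 ATPases lower in ONT, and 3 members differed in fold between platforms. PacBio calls numbered 206, and 133 with DESeq2, 971 with no filter, 50 with the replicate block and 63 with close pairs summed.

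TMM factors within each platform gave 0 members called for the difference of folds and 52.6% of calls higher, with SMARCA2 at -0.027, SMARCB1 at -0.084 and SMARCC2 at -0.062, and together with the replicate block 1 member called and 50.4% higher, with these genes at -0.096, -0.083 and -0.090. The block on RNA sample gave 3 members and 3108 genes called for the difference of folds; besides this and the PacBio count, the replicate block changed no other call or count past its limit. Leaving out 1 library gave 6 to 9 other subunits higher in Illumina; 2 to 7 members higher, 1 to 2 lower, 3 to 7 other subunits higher, 1 to 4 ATPases lower and 0 to 1 Polycomb genes lower in ONT; 24 to 336 PacBio genes; and 1300 to 3782 genes and 0 to 6 members for the difference of folds. The 7 members higher in ONT came without HCC827 replicate 3, which added SMARCA2 (0.65), ARID1A (0.59) and ARID2 (0.41). Directions turned within these ranges for ARID1B in ONT (-0.0039 to 0.25), for the difference of folds of SMARCA4 (-0.019 to 0.74), SMARCA2 (-0.24 to 0.29), SMARCB1 (-0.093 to 0.19) and SMARCC2 (-0.16 to 0.20), and for the ratios SMARCA4 over SMARCA2 in Illumina (-0.027 to 0.32) and SMARCC1 over SMARCC2 in ONT (-0.15 to 0.0013). The highest over the lowest member level per kb in H1975 was 20.8 with exon length and 12.9 with canonical length. The cause of these changes was not tested. PacBio depth limited the tests to 1 member.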

Other observations

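Among 15 ATPases of other chromatin remodelling families, 4 were called higher and 8 lower in HCC827 by Illumina, with a median log2 fold of -0.32, and 4 higher and 1 lower by ONT, with a median of -0.11. Over all genes 36.1% were called higher and 38.0% lower in Illumina, and 31.1% higher and 31.6% lower in ONT. CHD7, a chromodomain remodeller mutated in CHARGE syndrome, was higher on both platforms: it averaged 93.6 ± 19.96 CPM in HCC827 and 26.3 ± 0.877 CPM in H1975 Illumina libraries (SD, n = 3 each), a log2 fold of 1.83 ± 0.14 in Illumina and 2.26 ± 0.21 in ONT. HELLS, an ATPase that aids DNA methylation, was lower on both, at -0.99 ± 0.11 in Illumina and -0.82 ± 0.22 in ONT. CHD9 averaged 44.3 ± 3.87 CPM in HCC827 and 90.4 ± 3.03 CPM in H1975 Illumina libraries and was called lower in Illumina. Its ONT value of -0.31 ± 0.16 did not pass (edgeR adjusted p = 0.109), but was called lower with raw totals (-0.87, edgeR adjusted p = 0.00163) and without HCC827 replicate 1 (-0.43, edgeR adjusted p = 0.0460).

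Of 11 genes of Polycomb repressive complex 2, which deposits the repressive H3K27 methyl mark and opposes SWI/SNF at many genes, 4 were called higher and 2 lower in HCC827 by Illumina, and 3 higher and 0 lower by ONT (edgeR), beside the same shares of all genes. The median log2 fold of the 11 was 0.15 in Illumina and 0.01 in ONT. With raw totals 5 were called lower in Illumina and 6 in ONT. The accessory genes PHF19, PHF1 and MTF2, the Polycomb-like proteins that bind methylated histone H3K36, were called higher on both platforms with TMM. PHF19 had log2 folds of 1.39 ± 0.12 in Illumina and 1.18 ± 0.14 in ONT, PHF1 of 1.36 ± 0.12 and 1.31 ± 0.22, and MTF2 of 1.16 ± 0.11 and 0.89 ± 0.15; the ONT call of MTF2 was lost with raw totals (0.34, edgeR adjusted p = 0.109). SUZ12, a core subunit, was called lower in Illumina at -1.07 ± 0.09 (edgeR adjusted p = 1.26e-07). Its ONT value of -0.38 ± 0.16 did not pass (edgeR adjusted p = 0.0633), but passed with raw totals and without HCC827 replicate 2. JARID2, the other gene called lower in Illumina and outside the naming rule, was at -0.73 ± 0.11 there and -0.05 ± 0.27 in ONT. The catalytic gene EZH2, chosen after its values were seen, did not pass on either platform, at 0.15 ± 0.09 in Illumina (edgeR adjusted p = 0.169) and 0.14 ± 0.15 in ONT (edgeR adjusted p = 0.415).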
